A study of Mus musculus with 4 samples.

Results

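The nuclear-encoded subunits of the respiratory chain were examined in basal and luminal cells of the developing mouse prostate. Members were the protein-coding rows of the deposited table whose gene symbol, in the GRCm38 annotation, has the form of a subunit name of complex I to complex V (symbols starting with Ndufa, Ndufab1, Ndufb, Ndufc, Ndufs, Ndufv, Uqcr, Cox4 to Cox8 or Atp5, together with Sdha to Sdhd and Cyc1, and without the Ndufaf assembly factors). This gave 86 members of 49671 rows, with 38 in complex I, 4 in complex II, 9 in complex III, 18 in complex IV and 17 in complex V. By its symbol the rule also took in Atp5s, a coupling factor that is not a structural subunit, and counted it with complex V. RNA-seq was performed on 4 libraries from untreated CD-1 males at postnatal day 10 to 13, 2 of multipotent basal cells (EpCAM high, CD49f high, replicates 1 and 3) and 2 of the luminal cells that arise from them (high EpCAM with low CD49f, replicates 3 and 2). Cells positive for CD45, CD31 or CD140a had been sorted out, and all cells came from the tips of the ventral lobe, where tissue of several mice was combined. The comparison asks whether transcripts of the respiratory chain differ as luminal cells arise from basal cells.

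Oxidative phosphorylation takes place in the inner mitochondrial membrane. Complex I accepts electrons from NADH and complex II accepts them from succinate, complex III passes them to cytochrome c, and complex IV hands them to oxygen. Complexes I, III and IV pump protons, and complex V, the ATP synthase, uses the resulting gradient to make ATP. Most subunits are encoded in the nucleus and imported, while a small core of complexes I, III, IV and V is encoded in mitochondrial DNA. In the adult prostate, luminal cells are the secretory cells and are known for the export of citrate.

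The values are gene counts that were scaled to the same total in each library, called normalized read counts here. Libraries differed in depth, with 3194389 and 3079594 recovered reads in basal replicates 1 and 3 and with 1036653 and 643270 in luminal replicates 3 and 2. One read was therefore worth 6.26, 6.49, 19.4 and 31.2 normalized reads in these 4 libraries, and a median tested member held 72, 58, 27.5 and 12 reads. All 4 basal markers were lower in both luminal libraries, and 3 of 7 luminal markers (Krt8, Krt18 and Krt19) were higher in both. Nothing in the labels says whether replicates came from separate animals, so p-values measure only the spread between these libraries, and with 2 against 2 libraries an exact two-sided permutation test of a single value cannot go below 0.333. In bulk samples, fewer cells of a type and less RNA per cell cannot be told apart.

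Elements known from promoters of respiratory genes were counted. Of the 86 members, 69 matched a RefSeq promoter window of GRCm38.p6 (250 bases before to 50 after the start, 300 in all). The palindromic element of nuclear respiratory factor 1 was present on either strand in 17 of 69 members (24.6%) and in 7.17% of the windows of 17492 protein-coding genes. The YY1 element AAGATGGCG was present in 7 members (10.1%, against 2.14%), and the estrogen-related receptor element TCAAGGTCA in 2 members (2.90%, against 0.377%). The GABPA element CCGGAAGT was found in 5 members (7.25%, against 5.69%), the cyclic AMP element TGACGTCA in 4 (5.80%, against 2.54%), GGGCGG in 29 (42.0%, against 49.2%) and TATAAA in 7 (10.1%, against 14.8%). None of these 7 strings contains another, both strands were searched, and a match is a description of letters, not a bound site.

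Promoters of 4 members are shown up to the first annotated exon base. Ndufa4 is the complex I-named member with the lowest limma adjusted p and held none of the elements. Uqcr11 is the complex III member with the largest log2 fold change and held the GABPA element. Atp5g3, the main c-ring gene here, held the estrogen-related receptor element on the opposite strand (and a nuclear respiratory factor 1 element after its start, not shown), and Ndufs5 is an example with the nuclear respiratory factor 1 element. The windows lie at chr6:11907498-11907700, chr10:80406831-80407071, chr2:73911327-73911576 and chr4:123718203-123718436 of GRCm38.p6, and all 4 genes are on the minus strand. Capitals mark the matched element.
Ndufa4: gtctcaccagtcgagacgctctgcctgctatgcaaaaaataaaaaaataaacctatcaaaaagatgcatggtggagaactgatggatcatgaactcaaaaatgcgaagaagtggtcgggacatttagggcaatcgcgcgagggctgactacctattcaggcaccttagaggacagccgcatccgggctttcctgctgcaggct
Uqcr11: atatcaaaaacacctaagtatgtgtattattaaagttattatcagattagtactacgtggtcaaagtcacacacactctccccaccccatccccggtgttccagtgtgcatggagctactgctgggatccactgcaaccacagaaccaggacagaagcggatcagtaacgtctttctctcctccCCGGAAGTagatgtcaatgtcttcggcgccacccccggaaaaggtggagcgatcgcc
Atp5g3: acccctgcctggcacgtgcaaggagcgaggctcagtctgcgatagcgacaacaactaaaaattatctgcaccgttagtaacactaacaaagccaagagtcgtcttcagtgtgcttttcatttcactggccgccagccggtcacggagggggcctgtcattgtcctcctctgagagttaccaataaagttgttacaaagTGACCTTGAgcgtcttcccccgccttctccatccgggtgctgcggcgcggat
Ndufs5: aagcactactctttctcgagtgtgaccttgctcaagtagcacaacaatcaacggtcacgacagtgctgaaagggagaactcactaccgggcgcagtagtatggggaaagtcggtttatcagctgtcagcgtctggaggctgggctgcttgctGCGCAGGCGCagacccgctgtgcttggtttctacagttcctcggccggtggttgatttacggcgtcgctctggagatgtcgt

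Over all members, the median change between luminal and basal cells was close to 0. A filter on low values kept 80 of 86 members and 18737 of all genes. The log2 fold change of luminal over basal, fitted on log2 of the normalized read count plus 1, had a median of -0.00 over the 80 members (quartiles -0.39 and 0.35), beside -0.10 over all tested genes and -0.15 over the tested nuclear protein-coding genes. Of the members, 40 were above and 40 below 0. By the fold rule of the study, a ratio of group averages of 2 or more or of 0.5 or less, 6 members were higher in luminal cells (7.5%, against 18.3% of all tested genes) and 2 were lower (2.5%, against 16.3%). The difference between these shares was not tested, and the counts moved with the scaling and with single libraries.

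No member passed the test across genes. limma gave 0 members with an adjusted p under 0.05, where 0.694% of all tested genes passed. At an unadjusted p under 0.05, limma gave 3 members higher (Ndufa1, Ndufa4 and Ndufa8, where 7.82% of all genes were) and 1 lower (Sdhb, where 10.7% were), in all 5% of members against 18.5% of all genes. edgeR and DESeq2, run on recovered reads, each gave 0 members, where they called 5.06% and 4.37% of all genes. By direction, edgeR called 2.36% of all genes higher and 2.7% lower in luminal cells. The median standard error of a member's log2 fold change was 0.43 and the median half-width of its 95% interval 1.09, so that changes of 2-fold were within the error for a typical member. In simulated libraries of this design the adjusted limma test missed even larger planted changes that edgeR and DESeq2 called in part, so a limma count of 0 does not show that members did not differ.

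The 2 luminal libraries differed from each other in where they lay against the basal ones. Luminal replicate 3 was above both basal libraries in 46 of 80 members (57.5%, against 35.8% of all genes) and below both in 16 (20%, against 42.6%). Luminal replicate 2 was below both basal libraries in 40 members (50%, against 40.7%) and above both in 20 (25%, against 38.7%). In 18 of the 80, replicate 3 was above both and replicate 2 below both, and in 3 the reverse held. Replicate 3 exceeded replicate 2 in 65 members (81.3%, against 44.9%). The median difference from the basal mean was 0.30 on the log2 scale in replicate 3 and -0.16 in replicate 2. The same order was found in mitochondrial ribosomal protein genes, where replicate 3 exceeded replicate 2 in 58 of 78, and in cytosolic ribosomal protein genes, in 57 of 84.

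Both luminal libraries were above both basal libraries in 14 members (17.5%, against 23.6% of all genes) and below both in 13 (16.3%, against 27.3%), and the groups overlapped in 53. Members made up 0.282% (95% Wilson interval 0.276 to 0.288) of all reads in basal replicate 1, 0.256% (0.250 to 0.261) in basal replicate 3, and for the luminal libraries 0.301% (0.291 to 0.312) of replicate 3 and 0.213% (0.202 to 0.225) of replicate 2. These intervals cover counting error only. The basal shares thus lay between the luminal ones. As a share of nuclear protein-coding reads, the members took 0.371%, 0.342%, 0.526% and 0.332% in the same order, with luminal replicate 3 alone apart.

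The libraries also differed in composition. Nuclear protein-coding genes held 76.0% and 74.7% of reads in the basal libraries, 57.3% in luminal replicate 3 and 64.2% in luminal replicate 2. Rows of ribosomal RNA-like transcripts (CT010467.1, Gm42418 and AY036118, chosen after their values were seen) held 11.0%, 11.0%, 22.6% and 18.1%. Summed levels of 6 stromal markers were 100128 and 206090 in the basal libraries, 70885 in luminal replicate 3 and 196201 in luminal replicate 2. Those of 8 muscle markers were 31288, 54188, 10061 and 62199, with 7 of 8 above 3 reads in every library and Myl1 at 0. In both marker lists luminal replicate 3 was the lowest library. Endothelial markers (3 genes) summed to 1347, 1157, 387 and 841 and immune markers (3 genes) to 782, 188, 175 and 218, and erythroid markers did not exceed 31 in sum. Transcripts of the antigens used to sort cells out were present, with Pdgfra (CD140a) at 3307, 4144, 2575 and 8383, Pecam1 (CD31) at 833, 637, 174 and 499 and Ptprc (CD45) at 150, 6, 0 and 0. The stromal sums exceeded the summed basal markers (63942, 49394, 4685 and 3863) and the summed luminal markers (14779, 18655, 49761 and 30508) in every library. The part of these values in the differences among members was not tested. When libraries were rescaled to the nuclear protein-coding total, the median over all genes moved from -0.10 to 0.22, the member median became 0.31, and the fold calls became 12 higher and 1 lower. With median-ratio size factors they were 8 higher and 1 lower. Without luminal replicate 2 the fold calls were 12 higher and 2 lower, and without luminal replicate 3 they were 6 higher and 14 lower.

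**Figure D1:**
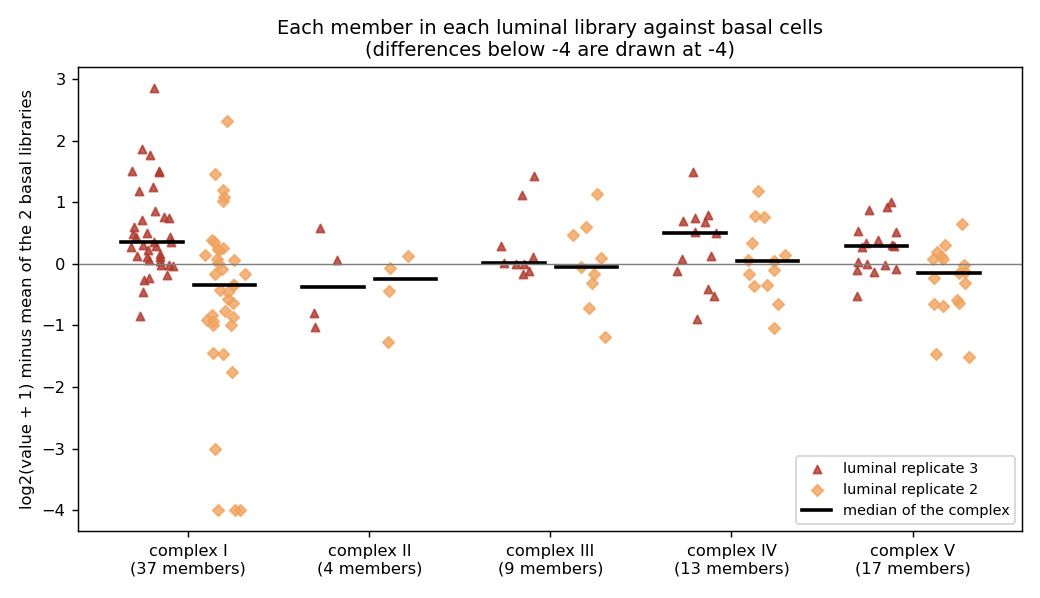
Difference of each tested member from the mean of the 2 basal libraries, on the scale of log2 of the normalized read count plus 1, in luminal replicate 3 (triangles) and luminal replicate 2 (diamonds), by complex. Black lines are medians of a complex, which lie at 0.35 and -0.34 in complex I and at 0.50 and 0.05 in complex IV. Values below -4 are drawn at -4.

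The members past the fold rule came from complexes I to IV. Of the 6 that were higher in luminal cells, 4 belong to complex I by name, 1 to complex III and 1 to complex IV. In each of the 6, both luminal libraries lay above both basal libraries. Tested members had a median exon length of 1696.5 bases against 3546 over all tested genes. The 40 members with shorter transcripts had a median log2 fold change of 0.17 and the 40 with longer ones of -0.09, and the 40 members of higher level had -0.09 where those of lower level had 0.19.

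Complex I, the entry point for NADH, showed a log2 fold change with a median of -0.12 over 37 tested members, with 16 above and 21 below 0. Its sign turned on the library, at 0.35 for luminal replicate 3 alone and -0.34 for replicate 2 alone, and rescaling gave 0.19. Luminal replicate 3 was above both basal libraries in 25 of the 37 (67.6%, against 35.8% of all genes). Luminal replicate 2 was below both in 20 (54.1%, against 40.7%). The member with the largest fitted increase was Ndufa1 (ENSMUSG00000016427, chrX:37187588-37191163, GRCm38), a small membrane-arm subunit needed for assembly of the complex. Its normalized read count was 38 and 143 in basal replicates 1 and 3, and 542 and 374 in luminal replicates 3 and 2. Both luminal values exceeded both basal ones, and the basal values themselves differed by more than 3-fold. The means were 90.5 ± 74.2 (SD, n = 2) in basal and 458 ± 119 (SD, n = 2) in luminal cells. The log2 fold change was 2.59 ± 0.79 (SE), with a limma adjusted p of 0.169 and an edgeR adjusted p of 0.0795. It was 1.65 without basal replicate 1 and 3.53 without basal replicate 3, and reached 5.43 at most over all alternatives. These values rest on 6 and 22 basal reads and on 28 and 12 luminal reads.

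Ndufa4 (ENSMUSG00000029632, chr6:11900292-11907497) was named as a complex I subunit and is known as a component of complex IV. It had 388 and 299 normalized reads in basal cells and 774 and 779 in luminal cells. The luminal libraries were nearly equal and both lay above the basal ones. The log2 fold change was 1.19 ± 0.34, with a 95% interval of 0.34 to 2.03, and the limma adjusted p of 0.143 was the lowest among members. With reads thinned to the shallowest library the log2 fold change was 0.85, and Ndufa4 no longer met the fold rule. Its relative Ndufa4l2, a hypoxia-induced form, did not pass the filter, with values of 0 and 13 in basal and 0 and 0 in luminal libraries.

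Ndufa8 (ENSMUSG00000026895, chr2:36036326-36049406), an accessory subunit on the intermembrane side, had 69 and 149 normalized reads in basal and 349 and 280 in luminal libraries. The groups did not overlap, with a log2 fold change of 1.61 ± 0.63 and a limma adjusted p of 0.261. It was 1.06 without basal replicate 1 and 2.16 without basal replicate 3, and the log2 fold change ran from 1.06 to 4.76 over all alternatives. Ndufa9 (ENSMUSG00000000399, chr6:126821721-126849136), a subunit at the junction of the matrix and membrane arms, had 232 and 65 in basal and 349 and 249 in luminal libraries. Its highest basal and lowest luminal value were close, and the log2 fold change of 1.25 ± 0.76 had an interval that included 0 (-0.66 to 3.17). Its call turned on basal replicate 3, without which the log2 fold change was 0.34, and was lost without luminal replicate 3, at 1.01, and with thinned reads, at 0.82.

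On the lower side was Ndufb6 (ENSMUSG00000071014, chr4:40270591-40279421), a membrane-arm subunit, with 169 and 208 normalized reads in basal libraries, and 136 and 0 in luminal replicates 3 and 2. The ratio of averages was 0.361. This value turned on luminal replicate 2, without which the log2 fold change was -0.46. In that library 3 tested members were at 0 (Ndufa5, Ndufb4 and Ndufb6) and 11 were at or under 3 reads, a level equal to 93.5 normalized reads. The exons of Ndufb6 overlap another gene over 39.0% of their length, so that reads may be shared. Ndufa5 had 143 and 135 in basal libraries, 194 in luminal replicate 3 and 0 in luminal replicate 2, and its basal values were not whole multiples of 1 read. All 4 values became whole multiples when the spacing of basal replicate 3, luminal replicate 3 and basal replicate 1 was taken for basal replicate 1, basal replicate 3 and luminal replicate 3 in turn. Many genes whose values lie on their own spacing also meet such an exchange, so meeting it does not show that values were exchanged. Because values of Ndufa5 lie off the spacing, its level is uncertain, and whether each value belongs to its library could not be told. Ndufb4 had 38, 58, 174 and 0 in the same order. The 10 Ndufb genes had a median of -0.28. Luminal replicate 2 was below both basal libraries in 7 (70%, against 40.7% of all genes), with a median difference of -0.80. Luminal replicate 3 was above both in 5 (50%, against 35.8%) and below both in 2 (20%, against 42.6%), with a median difference of 0.18.

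The 7 core subunits, which carry the redox centres of the matrix arm, had a median log2 fold change of -0.41, and the 30 tested accessory subunits had -0.03. The core median was 0.12 above the basal mean in luminal replicate 3, with 4 of 7 above both basal libraries (57.1%, against 35.8% of all genes). It was -0.57 in luminal replicate 2, so its direction turned on the library. Ndufv1, the flavin-binding subunit, had 620 and 630 normalized reads in basal cells and 678 and 312 in luminal cells. Ndufs1, the largest iron-sulfur subunit, had 783 and 792 in basal and 658 and 530 in luminal libraries. Ndufs1 was the core subunit in which both luminal libraries were below both basal ones, with a log2 fold change of -0.41 ± 0.30. In Ndufs7, which carries the last iron-sulfur centre, the values were 351 and 338 in basal, 465 in luminal replicate 3 and 125 in luminal replicate 2.

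**Figure D2:**
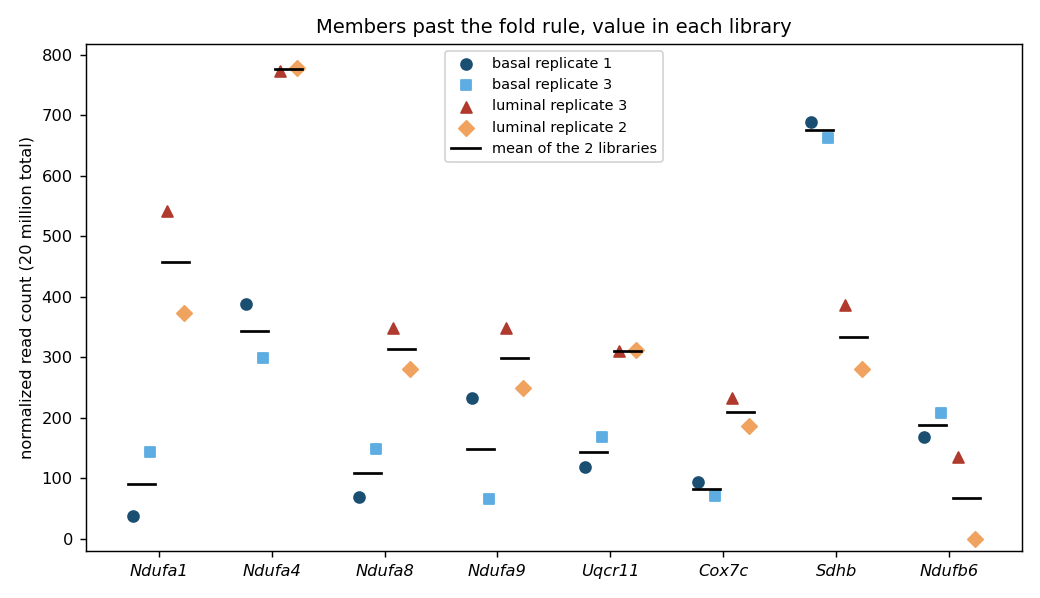
Normalized read count, on a linear axis, of the 8 members past the fold rule in the 2 basal libraries (replicates 1 and 3) and the 2 luminal ones (replicates 3 and 2). Bars are means of the 2 libraries of a group. Both luminal points lie above both basal points in Ndufa1, Ndufa4, Ndufa8, Ndufa9, Uqcr11 and Cox7c and below them in Sdhb and Ndufb6.

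Complex II, succinate dehydrogenase, is shared between the respiratory chain and the TCA cycle and is encoded wholly in the nucleus. Its 4 subunits split. Sdhb (ENSMUSG00000009863, chr4:140961203-140979193), the iron-sulfur subunit, had 689 and 663 normalized reads in basal and 387 and 280 in luminal libraries. Basal replicates were close to each other and both luminal libraries lay clearly below them. The means were 676 ± 18.4 (SD, n = 2) and 334 ± 75.7 (SD, n = 2), a ratio of 0.493, with a log2 fold change of -1.04 ± 0.36, an interval of -1.93 to -0.14 and a limma adjusted p of 0.216. The ratio of Sdhb was above 0.5 with median-ratio size factors, rescaling, edgeR, DESeq2 or thinned reads and without basal replicate 1 or luminal replicate 2, where the log2 fold change was -1.01 and -0.80.

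Sdhc, a membrane anchor, had 620 and 565 in basal and 290 and 436 in luminal libraries, again without overlap, and a log2 fold change of -0.73 ± 0.38. Sdha, the flavoprotein that binds succinate, had 1321 and 818 in basal and 1084 and 997 in luminal libraries, so that the luminal values lay between the basal ones. Its log2 fold change was 0.00, with an interval of -0.82 to 0.82. Sdhd, the other anchor, had 407 and 201 in basal and 426 and 312 in luminal libraries. The median of the complex was -0.37. It is the only complex in which the medians of both luminal libraries were below the basal mean, at -0.37 in replicate 3 and -0.25 in replicate 2 on the log2 scale. The median of the complex was -0.058 after rescaling and 0.041 in 1 random thinning of reads, so its size and direction were not stable.

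Complex III had a median of 0.03 over 9 members, and its medians in luminal replicates 3 and 2 were 0.02 and -0.05. It was 0.34 after rescaling, 0.26 without basal replicate 1 and -0.19 without basal replicate 3, so its direction was not stable. Uqcr11 (ENSMUSG00000020163, chr10:80402997-80406830), the smallest accessory subunit, had 119 and 169 normalized reads in basal and 310 and 312 in luminal libraries. The groups did not overlap, with a log2 fold change of 1.13 ± 0.51 and a limma adjusted p of 0.314. Without basal replicate 1 the log2 fold change was 0.88 and the fold rule was missed. A near-identical copy of Uqcr11 is annotated elsewhere, so reads could be split between them. Uqcrc1, a core protein of the matrix side, was the lowest member of the complex, with 1735 and 1682 in basal and 1530 and 748 in luminal libraries and a log2 fold change of -0.67 ± 0.39.

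Among subunits that carry electrons, Cyc1, cytochrome c1, had 319 and 344 normalized reads in basal and 407 and 499 in luminal libraries. Both luminal values were higher, with a log2 fold change of 0.44 ± 0.37. Uqcrfs1, the Rieske iron-sulfur protein, had 946 and 689 in basal and 871 and 779 in luminal libraries, a log2 fold change of 0.03 with an interval of -0.74 to 0.80. Uqcrh, the hinge protein that contacts cytochrome c1, was among the most abundant members per length, with 2280 and 2046 in basal and 1994 and 1309 in luminal libraries. Both luminal libraries lay below, by -0.42 ± 0.29 on the log2 scale.

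Complex IV, cytochrome c oxidase, had the highest median of the complexes, 0.20 over 13 tested members, with 8 above and 5 below 0. Luminal replicate 3 was above both basal libraries in 8 of 13 (61.5%, against 35.8% of all genes) and luminal replicate 2 in 5 (38.5%, against 38.7%), and each was below both in 4 (30.8%, against 42.6% and 40.7%). The median was 0.50 without luminal replicate 2 and 0.047 without luminal replicate 3. Counting Ndufa4 with complex IV gave a median of 0.22. Cox7c (ENSMUSG00000017778, chr13:86044816-86046904), a small membrane subunit, had 94 and 71 normalized reads in basal and 232 and 187 in luminal libraries. The groups did not overlap, and the log2 fold change was 1.34 ± 0.63 with a limma adjusted p of 0.334. Over all alternatives the log2 fold change of Cox7c ran from 1.14 to 5.05. Near-identical copies of Cox7c number 2 in the annotation. Cox5a, a matrix-facing subunit, had 457 and 325 in basal and 620 and 343 in luminal libraries, with overlap.

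Several complex IV subunits exist in forms that differ between tissues. The ubiquitous Cox4i1 had 2192 and 2033 normalized reads in basal and 2227 and 1652 in luminal libraries, whereas its hypoxia- and lung-associated form Cox4i2 had 13 and 6 in basal and 0 and 0 in luminal libraries, at most 2 reads. Of the Cox6a pair, Cox6a1 had 758, 591, 949 and 623, and the heart and skeletal muscle form Cox6a2 was at 0 in all 4 libraries. Cox6b1 had 488, 403, 484 and 561, and Cox6b2, the testis form, had 44, 123, 39 and 125. Cox4i2 and Cox6a2 were thus at or near the limit of detection in both cell types, while Cox6b2 was low and did not follow cell type.

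Cox7a1, the muscle form, had 50 and 58 normalized reads in basal and 77 and 93 in luminal libraries. The values rest on 3 to 9 reads and, although the groups did not overlap, the log2 fold change of 0.64 ± 0.80 was smaller than its error. Cox7a2, the ubiquitous form, had 689 and 500 in basal and 407 and 374 in luminal libraries, lower in both, by -0.59 ± 0.36. Cox7a2l, a factor that joins complexes III and IV into supercomplexes, had 1754 and 1345 in basal and 1162 and 748 in luminal libraries. It was the lowest member of complex IV, with a log2 fold change of -0.72 ± 0.33 and a limma adjusted p of 0.322.

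Cox7b had 670 and 598 in basal and 1065 and 499 in luminal libraries, with the basal values between the luminal ones, and its testis form Cox7b2 was at 0 in all 4. Cox8a had 601 and 546 in basal and 929 and 592 in luminal libraries. Cox8b and Cox8c, forms of muscle and testis, were at 0 in all 4. A count of 0 allows up to 3 reads, which is 18.8 and 19.5 normalized reads in the basal and 58.1 and 93.5 in the luminal libraries, so small amounts were not detectable in luminal cells.

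**Figure D3:**
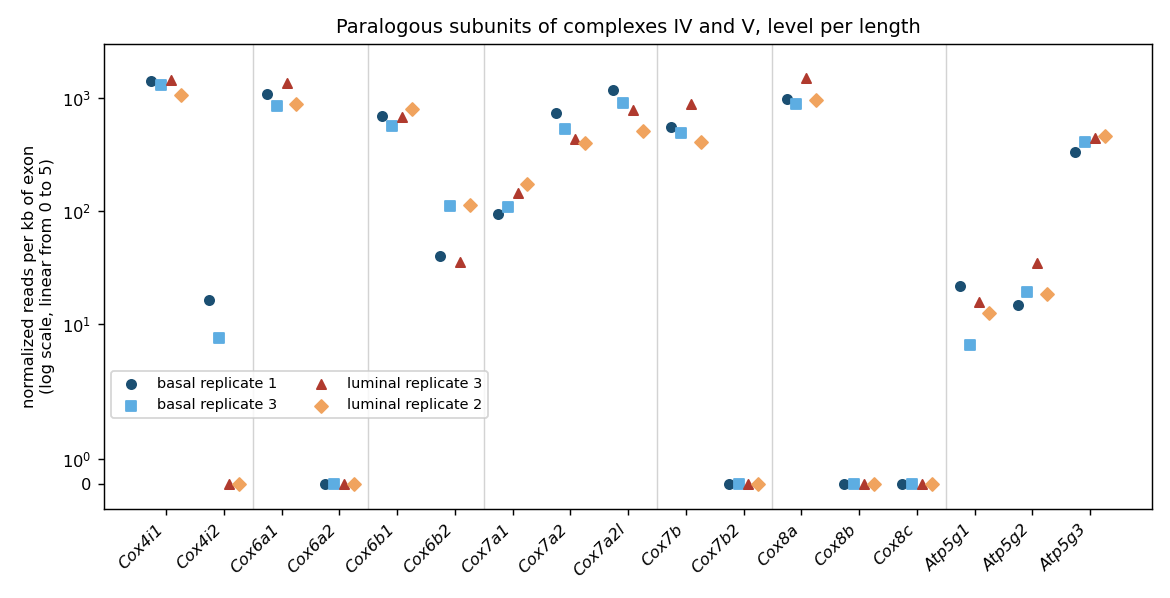
Level of paralogous subunits of complexes IV and V in each library, in normalized reads per kb of exon, on a log axis that is linear from 0 to 5. Grey lines separate the paralogue groups. Cox6a2, Cox7b2, Cox8b and Cox8c lie at 0 in all 4 libraries, and Atp5g3 lies above Atp5g1 and Atp5g2 in every library.

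The ATP synthase showed a median change of 0.01 on the log2 scale over 17 members, with 9 above and 8 below 0 and none past the fold rule. The sign of this median depended on single libraries, with 0.29 without luminal replicate 2, -0.15 without luminal replicate 3 and -0.11 without basal replicate 3, and it was 0.32 after rescaling. Luminal replicate 3 exceeded luminal replicate 2 in 16 of the 17, and in 44.9% of all genes. In the catalytic F1 head, Atp5a1 (alpha subunit) had 5643 and 5508 normalized reads in basal and 5286 and 3553 in luminal libraries, and Atp5b (beta subunit, which forms ATP) had 5981 and 5125 in basal and 5073 and 3677 in luminal libraries. Both luminal libraries were below both basal ones in both genes, by -0.36 ± 0.27 and -0.36 ± 0.26 on the log2 scale. The 5 genes of the head had a median of -0.33, and against the basal mean their median difference was -0.077 for luminal replicate 3 but -0.59 for replicate 2. Atp5c1, the rotating gamma subunit, was the member of the head that lay above 0, with 1829, 2105, 2846 and 1932.

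In the peripheral stalk, which holds the head still, luminal replicate 2 was below both basal libraries in all 4 genes (100%, against 40.7% of all genes). Its median difference was -0.47. Luminal replicate 3 was above both in 2 (50%, against 35.8%) and below both in 0 (against 42.6%), with a median difference of 0.17. The median log2 fold change was -0.09. Among accessory subunits of the membrane part, Atp5k had 219 and 182 in basal and 368 and 312 in luminal libraries and was the highest member of the complex, with a log2 fold change of 0.76 ± 0.45. Atp5l had 445 and 292 in basal and 252 and 125 in luminal libraries and was the lowest, at -1.02 ± 0.57. Neither had overlapping groups. Both belong to the dimer interface of the enzyme, and Atp5l has 3 near-identical copies in the annotation. The limma adjusted p was 0.421 for Atp5k and 0.398 for Atp5l.

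The rotating c-ring is encoded by 3 genes whose mature products are the same protein. Their last 225 coding bases, which hold the mature part, are shown because within this part reads of the 3 genes differ only at the marked positions. The rest of each transcript is not shown. They come from chr11:96073107-96073635, chr15:102663017-102665166 and chr2:73908596-73909296 of GRCm38, spliced and read on the minus strand. Capitals mark positions at which the 3 genes are not all the same, 57 of the 225.
Atp5g1: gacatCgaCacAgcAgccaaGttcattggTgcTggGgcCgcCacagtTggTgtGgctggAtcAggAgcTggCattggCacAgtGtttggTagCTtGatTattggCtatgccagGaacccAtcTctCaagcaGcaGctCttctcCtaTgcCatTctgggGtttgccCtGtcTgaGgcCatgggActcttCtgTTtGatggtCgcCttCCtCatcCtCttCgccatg
Atp5g2: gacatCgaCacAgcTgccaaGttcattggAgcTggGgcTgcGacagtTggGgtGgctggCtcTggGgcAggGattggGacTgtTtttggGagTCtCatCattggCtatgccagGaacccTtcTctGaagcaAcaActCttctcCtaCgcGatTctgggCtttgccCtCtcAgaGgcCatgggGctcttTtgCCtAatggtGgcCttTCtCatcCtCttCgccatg
Atp5g3: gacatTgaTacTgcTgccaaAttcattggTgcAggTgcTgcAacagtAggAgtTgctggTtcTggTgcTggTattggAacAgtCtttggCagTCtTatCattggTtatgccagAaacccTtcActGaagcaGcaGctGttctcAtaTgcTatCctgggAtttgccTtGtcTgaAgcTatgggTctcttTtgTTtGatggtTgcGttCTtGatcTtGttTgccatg
Atp5g1 and Atp5g2 were identical at 84.9% of these positions, Atp5g1 and Atp5g3 at 80%, and Atp5g2 and Atp5g3 at 78.7%.

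Of the normalized reads of the c-ring genes, Atp5g3 held 84.8% and 93.2% in basal and 87.8% and 91.5% in luminal libraries, with 733 and 883 normalized reads in basal and 968 and 997 in luminal libraries. Both luminal values were higher, by 0.29 ± 0.27 on the log2 scale, with an interval of -0.40 to 0.97. Per kb of exon, its mean level was 370.5 in basal and 450.5 in luminal cells. Atp5g1 had 106 and 32 in basal and 77 and 62 in luminal libraries, and Atp5g2 had 25, 32, 58 and 31, where both luminal libraries were at or under 3 reads. Per kb, Atp5g1 reached 14.0 in basal and 14.1 in luminal cells and Atp5g2 17.0 and 26.6, and both genes have near-identical copies elsewhere.

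**Figure D4:**
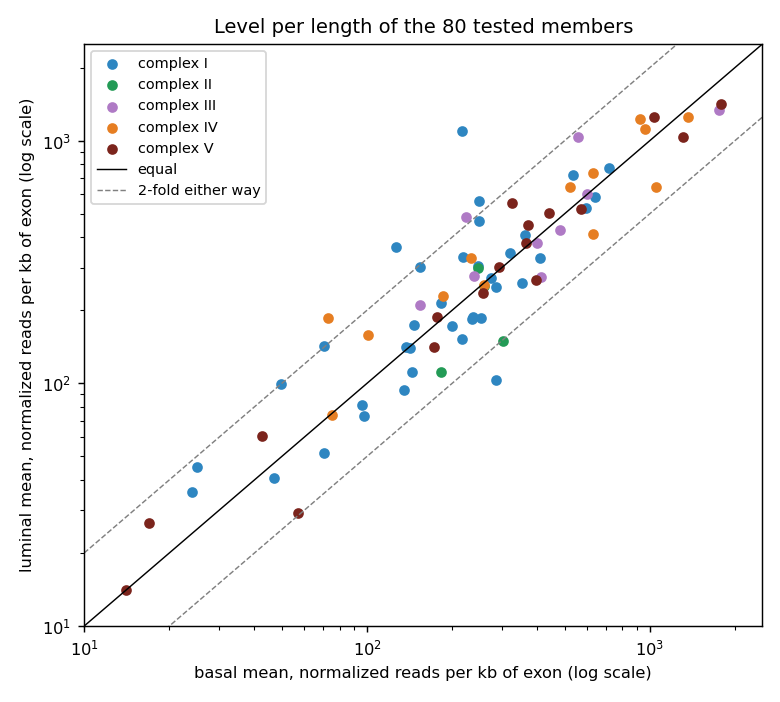
Mean level per length of the 80 tested members in basal (horizontal) and luminal cells (vertical), in normalized reads per kb of exon on log axes, coloured by complex. The solid line marks equal levels and the dashed lines a 2-fold difference. Most points lie between the dashed lines, with Ndufa1 farthest above them at 216 in basal and 1093 in luminal cells.

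The highest members per kb in basal cells were Atp5a1 (1778), Uqcrh (1749), Cox4i1 (1363), Atp5b (1311) and Cox7a2l (1048). In luminal cells the corresponding levels were 1410, 1335, 1251, 1033 and 646. Atp5c1, at 1252 normalized reads per kb, and Cox8a, at 1229, were close to Cox4i1 in luminal cells, and these neighbours do not differ beyond their spread.

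Of 49 listed assembly factors, which build the complexes without being part of them, 47 were tested, with a median log2 fold change of 0.05 (0.36 after rescaling, -0.03 without basal replicate 3), 7 past the fold rule upward (14.9%, against 18.3% of all genes) and 6 downward (12.8%, against 16.3%). Here too limma called 0, and edgeR called 1. This was Acad9, a complex I assembly factor that resembles the acyl-CoA dehydrogenases, with 2586 and 1702 normalized reads in basal and 387 and 218 in luminal libraries. All luminal values were far below, by -2.85 ± 0.41 on the log2 scale, with an edgeR adjusted p of 0.00253 and a limma adjusted p of 0.0625. Acad9 thus fell by the read-based tests, and without basal replicate 1, basal replicate 3, luminal replicate 3 or luminal replicate 2 its log2 fold change was -2.55, -3.15, -3.26 and -2.44.

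Assembly factors of complex I had a median of 0.50 over 13, those of complex II 0.65 over 4, those of complex III -0.17 over 5, those of complex IV -0.03 over 22 and those of complex V -0.26 over 3. These medians moved with the library. Against the basal mean, replicate 3 and replicate 2 of the luminal cells had 0.054 and 0.23 for complex I factors, 0.72 and 0.13 for complex II, 0.14 and 0.098 for complex III, 0.28 and -0.48 for complex IV, and -0.20 and -0.32 for complex V. By the fold rule, Ndufaf4 (69, 39, 77 and 249) and Ndufaf7 (75, 65, 213 and 405) were higher in luminal cells, and so were Foxred1 (88, 143, 368 and 125) of complex I and Coa4 (38, 52, 58 and 156), Pet100 (50, 78, 136 and 125) and Cmc2 (75, 19, 155 and 93) of complex IV. Sdhaf3 (39, 24, 77 and 93) was past the rule too, although not all of its values were whole multiples of 1 read, and no exchange of libraries made them so. The order is basal replicates 1 and 3, then luminal replicates 3 and 2. Several of these rest on few reads, with 6, 8, 3 and 5 for Coa4, 12, 3, 8 and 3 for Cmc2 and about 6, 4, 4 and 3 for Sdhaf3. Lower by the rule, besides Acad9, were Ndufaf8 (13, 52, 0 and 31), Sdhaf4 (106, 71, 19 and 31), Sco1 (138, 84, 39 and 0), Coa7 (56, 32, 39 and 0) and Pet117 (19, 32, 0 and 0). The basal means of Ndufaf8, Coa7 and Pet117 (32.5, 44 and 25.5) lie under the luminal floors of 58.1 and 93.5, so a lower level in luminal cells was not detectable for these 3 of the 6. Sdhaf4 held 1 read in each luminal library and Sco1 held 2 and 0, all at or under the floor of 3 reads. The basal mean of Sdhaf4, 88.5, also lies under the floor of luminal replicate 2. Acad9, with 20 and 7 luminal reads, was above the floor in both.

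Among 14 regulators of respiratory genes, 2 passed a test. Esrrg, an orphan nuclear receptor that drives oxidative genes, had 38 and 214 normalized reads in basal and 1317 and 1683 in luminal libraries. It rose by the edgeR test, with a log2 fold change of 4.02 ± 0.84 in the limma fit, an edgeR adjusted p of 0.00527 and a limma adjusted p of 0.0705. The fold rests on the spread of the basal libraries, with a log2 fold change of 2.79 without basal replicate 1 and 5.26 without basal replicate 3. Hif1a, the oxygen-sensitive factor of the hypoxia response, had 8066 and 7028 in basal and 2169 and 2400 in luminal libraries. It fell by both tests, by -1.72 ± 0.22 on the log2 scale, with a limma adjusted p of 0.0497 and an edgeR adjusted p of 0.00466. The limma call was lost under median-ratio size factors (adjusted p 0.0516), after rescaling to the nuclear protein-coding total (0.0635) and without a filter (0.228). Without the trended prior, a setting that made only false calls in simulated data, it was lost too (0.160). The call was kept with a filter met in both groups (limma adjusted p 0.00589), a pseudocount of 10 (0.0183) and thinned reads (0.0158). It was also kept without genes off the spacing (0.0487), and DESeq2 gave an adjusted p of 0.00133. Leaving out 1 library leaves 1 library in a group, so only the effect size is given. The log2 fold change of Hif1a was then between -1.82 and -1.62. After rescaling the log2 fold change was -1.41.

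The median over the 14 regulators was -0.18, with 7 below both basal libraries in both luminal ones (27.3% of all genes) and 2 above in both (23.6%). Of the factors whose elements were counted in promoters, Yy1 had 2436 and 1760 in basal and 1375 and 748 in luminal libraries, with a log2 fold change of -1.03 ± 0.38 and a limma adjusted p of 0.241. Gabpa had 1697, 1423, 794 and 1340 and its partner Gabpb1 1340, 1449, 794 and 810, at -0.59 ± 0.34 and -0.80 ± 0.25, with limma adjusted p of 0.413 and 0.182. Nrf1 had 695, 669, 445 and 1215, with the basal values between the luminal ones. Ppargc1a, a coactivator of mitochondrial biogenesis, had 2931 and 2189 in basal and 3505 and 2618 in luminal libraries, with overlap. Ppargc1b, at 138, 63, 19 and 31, was past the fold rule downward, with 1 read in each luminal library, under the floor of 3. The 2 members that held the estrogen-related receptor element, Atp5g3 and Sdhd, had log2 fold changes of 0.29 ± 0.27 and 0.35 ± 0.51, neither past the limma threshold, with adjusted p of 0.594 and 0.733.

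The 13 TCA cycle genes outside complex II had a median of -0.50 (-0.19 after rescaling, -0.12 without luminal replicate 2), with 8 of them below both basal libraries in both luminal libraries (61.5%, against 27.3% of all genes), 1 above in both (7.69%, against 23.6%) and 0 called by limma or edgeR. By the fold rule Suclg1, a subunit of succinyl-CoA ligase, was higher (582, 442, 1259 and 1122) and Dld, the shared E3 subunit of the dehydrogenase complexes, was lower (1271, 1475, 639 and 717). At an unadjusted p under 0.05, limma also gave 1 in each direction. Of electron carriers and entry enzymes 6 of 7 were tested, with a median of -0.19 (0.15 for luminal replicate 3 alone, -0.16 for replicate 2 alone). Cycs, somatic cytochrome c, was past the fold rule with 50 and 45 in basal and 77 and 125 in luminal libraries. These values stand for 8 and 7 basal and 4 and 4 luminal reads. Its log2 fold change was 1.03 ± 0.82, with a limma adjusted p of 0.528. Atpif1, the inhibitor of the ATP synthase, had 770, 779, 1142 and 405, with the basal values between the luminal ones.

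Most subunits encoded in mitochondrial DNA were above both basal libraries in both luminal ones. Their median log2 fold change was 0.92 over 13 genes, against -0.00 over the nuclear members, and 12 of 13 were above both basal libraries in both luminal libraries (23.6% of all genes). edgeR called 4 of them higher (mt-Co2, mt-Atp8, mt-Atp6 and mt-Co3), where it called 2.36% of all genes higher. limma called 0, with 6 higher at an unadjusted p under 0.05, where 7.82% of all genes were. mt-Co1, the catalytic subunit of complex IV, had 118664 and 175086 in basal and 297869 and 252012 in luminal libraries, whereas its nuclear partner Cox4i1 lay between 1652 and 2227 in all 4. The mitochondrial median was between 0.77 and 1.23 under all alternatives. The difference between nuclear and mitochondrial subunits was not tested. In the same libraries the nuclear protein-coding share of reads was 76.0% and 74.7% in basal and 57.3% and 64.2% in luminal replicates 3 and 2, and ribosomal RNA-like rows held 11.0%, 11.0%, 22.6% and 18.1%. Their part in the mitochondrial values was not tested. Cytosolic and mitochondrial ribosomal protein genes had medians of -0.06 over 84 and 0.06 over 78. The mitochondrial ribosomal median was 0.43 for luminal replicate 3 alone and -0.13 for replicate 2 alone, and the cytosolic one -0.055 and -0.18.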

How the data were processed

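RNA-seq was analysed in 4 libraries of sorted prostate tip cells, grouped by the cell type in the labels. Reads had been mapped with STAR to GRCm38 (mm10) and counted with HTSeq on Ensembl genes (Picard is also named in the submitters' processing notes, with no role), and the authors scaled these counts to 1 common total and deposited them, rounded, as a signal (normalized count) for each gene in each library. Duplicate handling, strand use and counting mode are not given in the sources used here. All columns were mapped to a sample, leaving 0 unmapped. The deposited table had not been filtered.

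The worth of 1 read was taken from the steps between values of at most 60 reads. Of these low values, 99.3%, 98.0%, 98.6% and 98.3% lay within 1 normalized read of it (basal 1 and 3, then luminal 3 and 2), and 522 genes, among them 1 member (Ndufa5), did not. Values off the spacing numbered 121, 335, 240 and 303 in the same order, and reads recovered from them are approximate. In 170 of the 522 genes, Ndufa5 among them, all values lay on the spacing after some exchange of libraries, as they did in 67.9% of on-spacing genes above 0 in every library, so this does not show that columns were mixed.

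The filter asked for 10 or more in both libraries of either group, with an average of 20 or more in that group. On the log2 scale, with a pseudocount of 1 and a trended prior, limma 3.58.1 compared the groups, and p-values were adjusted by Benjamini-Hochberg over all 18737 genes kept. The fold rule used ratios of group averages of 2 and 0.5. Alternatives used recovered reads with edgeR 4.0.16 or with DESeq2 1.42.0, and the others changed the filter, pseudocount, scaling, prior, fold threshold, depth and membership or left out a library. Depth was changed by 1 random draw of reads, so values from thinned reads also carry the error of that draw. Leaving out genes off the spacing, counting Ndufa4 with complex IV and the alternatives for other lists were added after seeing the data. On simulated data with several-fold changes planted, limma with the trended prior returned their size and direction and ranked them at low unadjusted p, but none passed the adjusted threshold, while edgeR and DESeq2 called many of them. Without the trended prior, limma made only false calls there, so its calls under that setting carry no weight. Wilson intervals (95%) and floors of 3 reads cover counting error only.

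The GENCODE annotation (GRCm38) gave symbols, exon lengths and positions for 49412 of the 49671 identifiers. Near-identical copies are stretches of 100 bases or more at 98% identity or more in another annotated gene (blastn 2.17.0+), and 16 members had one. Promoters came from RefSeq. The members, lists and tests were chosen with earlier results of these data known. Named were members past the fold rule or limma, in each complex the highest and lowest member at an average of 100 or more, paralogue groups, subunits with catalytic or redox centres, and those highest per length. Ndufs7, Ndufa5, Ndufb4, Sdhc, Sdhd, Atp5c1, Ppargc1a, Yy1, Gabpa, Gabpb1 and Nrf1 were named after their values were seen. Other tools were R 4.3.3, python 3.11.15, pandas 2.3.3, numpy 2.4.6, scipy 1.17.1 and matplotlib 3.10.9.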

Additional observations from a re-analysis of the deposited data

Results flagged for a closer look

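One signal lay outside the members. Of 11 rows that match the symbol rule and are annotated as processed pseudogenes, Cox6c2 was above 3 reads in every library, with normalized read counts of 100 and 65 in basal replicates 1 and 3 and of 116 and 187 in luminal replicates 3 and 2. It is a copy of Cox6c, whose own values were 946 and 903 in basal and 852 and 966 in luminal libraries, and whether its reads belong to Cox6c was not tested. Its log2 fold change was 0.86, with a limma adjusted p of 0.548.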

How the results depend on the processing

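No member had a limma adjusted p under 0.05 in any alternative except thinning all libraries to the shallowest, where 1 did (Atp5g2, whose luminal libraries hold at most 3 reads as deposited), and edgeR and DESeq2 also called 0. Because the adjusted limma test had little power in simulated data, and without the trended prior made false calls there, these counts of 0 say little about stability. The 6 members higher by the fold rule became 12 after rescaling to nuclear protein-coding genes and 15 at a fold of 1.5, and 6 to 12 when 1 library was left out. All 6 were kept after rescaling, with edgeR and with DESeq2, and 4 after thinning. The 2 lower members became 4 without a filter, 7 at a fold of 1.5, and 1 under the strict filter, median-ratio size factors, rescaling, edgeR or DESeq2, and 1 to 14 when 1 library was left out, 14 without luminal replicate 3. Without luminal replicate 2 the 2 lower members were Sdhc and Cox6b2, so 0 were shared. The member median stayed between -0.16 and 0.31. The median of complex II was -0.058 after rescaling and 0.041 after thinning, and -0.57 to -0.16 without 1 library. That of complex III was 0.34 after rescaling and -0.19 to 0.26 without 1 library. Of 155 recomputed summary values, 133 stayed within 1.5 times the count or within the spread between the luminal libraries. That spread was wide (SD of 0.32 for the member median and 0.49 for complex I), and a change of sign within it counted as staying. Some alternatives, such as another fold threshold, cannot move a median. The count of 133 therefore says little about stability. The cause of the shifts between alternatives was not tested. Shallow luminal libraries, in which a median member held 27.5 and 12 reads, limit what could be detected. No paired analysis was possible because the groups share only 1 replicate number.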
